A study of Homo sapiens with 6 samples.

Results

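MicroRNAs are made in steps. In the nucleus, DROSHA and its partner DGCR8 form the Microprocessor, which cuts a hairpin out of a long primary transcript, and XPO5 (exportin 5) carries the hairpin to the cytoplasm. There DICER1, with TARBP2 or PRKRA at its side, removes the loop, and 1 strand of the duplex is loaded onto an Argonaute protein (AGO1, AGO2, AGO3 or AGO4), which it guides to mRNAs. AGO2 is the Argonaute best known for cutting a fully paired target, and all 4 recruit the TNRC6 (GW182) proteins, through which mRNAs are deadenylated and decay. The 10 genes named here were chosen by their symbols from the 36601 genes of the count table, and all 10 were among the 12263 genes tested.

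NK92, a line grown from a human NK cell lymphoma that depends on IL-2, gave the RNA, and its cells stably expressed either an shRNA directed at miR155HG (shmiR155HG) or a control hairpin (shCtrl). All libraries, 3 in each group, were made after 12 h with IL-2 at 1000 U/mL and IL-12 at 10 ng/mL, and there was no group without cytokines. The treatment field of 2 libraries reads shmiR156HG and shmiR157HG, and these were taken as shmiR155HG from their titles. Whether the replicates came from separate transductions or cultures, or a line from 1 clone, is not given in the sources used here, so the p-values measure the spread between these libraries, which may be technical. An shRNA is itself cut by Dicer and loaded onto Argonautes, so both groups fed a short hairpin into the machinery described here, and no cells without an shRNA were sequenced. Poly(A) RNA was sequenced, which shows the mRNAs of this machinery but neither its proteins nor mature miRNAs.

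The total count of a library was between 33454786 and 39157264. MIR155HG (ENSG00000234883), the targeted gene, was counted 73, 67 and 62 times in shCtrl and 28, 19 and 10 times in shmiR155HG replicates 1, 2 and 3. By edgeR its log2 fold change came to −1.78 (SE 0.43, adjusted p = 0.00450). Its level was low, at 1.59 to 1.88 CPM in shCtrl and 0.299 to 0.730 CPM in shmiR155HG libraries. It passed the filter (over 1 CPM in at least 2 libraries) through the shCtrl libraries alone. The 9 NK cell markers examined were all detected (summed level 3290 to 3401 CPM in shCtrl and 2687 to 2805 CPM in shmiR155HG libraries). Of them, 2 were called higher and 3 lower, where 7.26% of all genes tested were called higher and 8.02% lower. Most of the lower sum lay in GZMB, at 1165 to 1244 CPM in shCtrl and 511.4 to 571.0 CPM in shmiR155HG libraries. PRF1 and NCR3 were also called lower, EOMES and TBX21 higher, and NCAM1, KLRD1, NKG7 and GNLY were not called. Of 9 T cell markers, CD8B was at 0 and 5 others (CD3D, CD3G, CD4, CD5 and CD8A) were under 1 CPM in every library, and the summed level was 516.4 to 535.5 CPM against 529.0 to 551.6 CPM. That sum came almost wholly from CD3E (326.8 to 333.7 CPM in shCtrl), TRBC1 (121.0 to 127.8 CPM) and TRAC (70.8 to 74.8 CPM). None of these was called. Of 6 myeloid markers, CD14, LYZ and FCGR1A were under 1 CPM in every library, and of the 3 tested 1, ITGAX, was called lower. All 6 together summed to 134.3 to 151.1 CPM in shCtrl and 108.4 to 116.4 CPM in shmiR155HG libraries. Most of that sum was ITGAX, at 122.1 to 137.7 CPM in shCtrl and 99.5 to 103.1 CPM in shmiR155HG libraries. Among B cell markers, MS4A1 and CD79B were under 1 CPM in every library, and PAX5, the only B cell marker that passed the filter, was called higher, with 228.1 to 263.5 CPM in shCtrl and 340.3 to 343.5 CPM in shmiR155HG libraries. The 10 histone genes examined, of a class whose mRNAs mostly lack a poly(A) tail, summed to 42.0 to 46.0 CPM in shCtrl and 79.8 to 84.8 CPM in shmiR155HG libraries. Of the 8 tested, 6 were called higher, where 7.26% of all genes tested were. Of those called, HIST1H4C, HIST2H2BE and HIST1H4H were under 1 CPM in every shCtrl library. They passed the filter only through the shmiR155HG libraries, so the filter partly fixed this count. Whether the higher sum of the histone genes came from RNA capture or from the cells was not tested. In these bulk libraries of a cell line, fewer NK92 cells expressing a gene and less of its RNA per cell cannot be told apart. The part of these differences in the results on the miRNA machinery was not tested.

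The miRNAs that this machinery makes from the targeted transcript are shown first, since their host was the gene knocked down and their own levels were not measured. MIR155 lies in exon 4 of MIR155HG on the plus strand, and both of its mature products are given below as RefSeq lists them for GRCh38.p14, with the seed (bases 2 to 8), the part that pairs with targets, in capitals. They occupy chr21:25573983-25574006 and chr21:25574022-25574043. MIR155 itself is not listed among the counted genes.
miR-155-5p: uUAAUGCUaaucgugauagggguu
miR-155-3p: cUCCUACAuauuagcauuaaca

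Of the 10 genes, only AGO2 was called higher in shmiR155HG cells and none was called lower (quasi-likelihood test of edgeR, adjusted p under 0.05 over all genes tested). Over all genes tested, 7.26% were called higher, 8.02% lower and 15.3% in either direction, so 1 call in 10 genes is near the background and is not a result about the group. In 3 of the 10 genes, AGO2, AGO3 and DGCR8, the shmiR155HG libraries all lay above the shCtrl libraries, and none lay wholly below, where 30.8% of all genes tested did not overlap between the groups. The median log2 fold change was 0.04 over the 10 genes and 0.00097 over all genes tested. The 10 genes summed to 1061, 1044 and 1070 CPM in shCtrl replicates 1, 2 and 3 and 1100, 1102 and 1075 CPM in shmiR155HG replicates 1, 2 and 3. The Argonautes summed to 296.6 ± 12.9 CPM (SD, n = 3) in shCtrl and 327.9 ± 6.34 CPM (SD, n = 3) in shmiR155HG cells, while the 6 processing and export genes summed to 761.6 ± 4.28 CPM and 764.1 ± 8.84 CPM (SD, n = 3 each). Most of the difference lay in AGO2 alone, with means of 184.0 and 213.7 CPM. AGO1 was lower (54.9 and 50.8 CPM) and AGO3 higher (56.7 and 62.4 CPM), and neither was called.

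**Figure D1:**
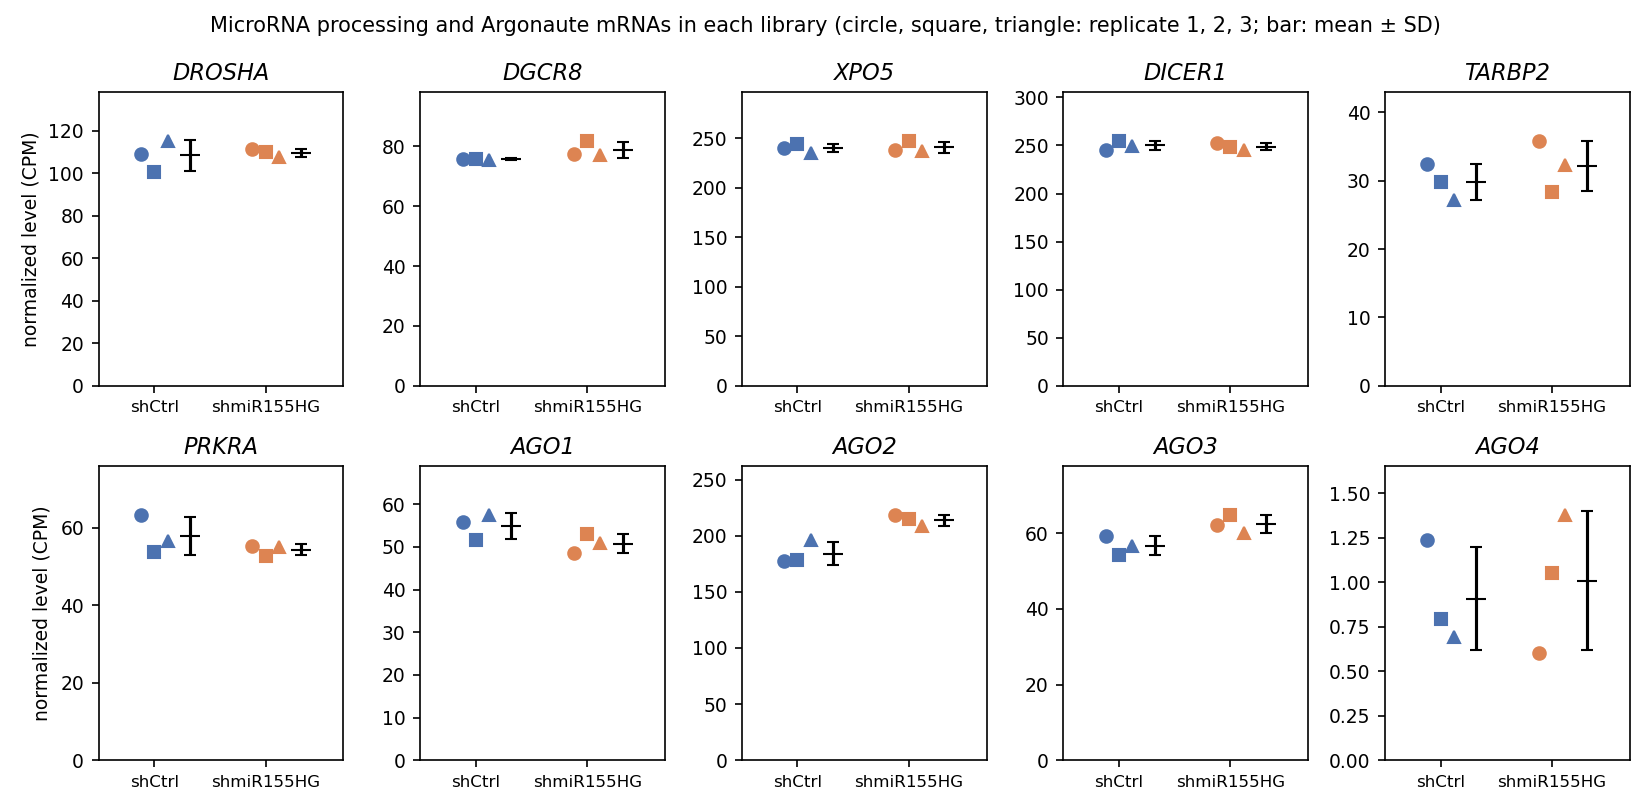
The normalized level (CPM, vertical axis from 0) of each of the 10 mRNAs is plotted for the 3 shCtrl and 3 shmiR155HG libraries, with 1 marker shape per replicate number and the mean ± SD beside each group. The groups separate for AGO2, AGO3 and DGCR8, and AGO4 is near 1 CPM with a wide spread.

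In the Microprocessor, the catalytic subunit DROSHA and its RNA-binding partner DGCR8 kept close to the shCtrl level. DROSHA (ENSG00000113360, hg38 chromosome 5 from 31400494 to 31532196, minus strand, 36 exons in the canonical transcript) stood at 109.1, 100.6 and 115.1 CPM in shCtrl replicates 1, 2 and 3 and at 111.3, 109.8 and 107.3 CPM in shmiR155HG replicates 1, 2 and 3. The shmiR155HG values fell inside the shCtrl range, with a log2 difference between groups of 0.016 (SE 0.052, adjusted p = 0.889). Its 95% interval ran from −0.091 to 0.12, a fold between 0.939 and 1.09, where all intervals of single genes here are unadjusted for the number of genes. The sign of the DROSHA value turned without shCtrl replicate 2, where it was −0.033.

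DGCR8 (ENSG00000128191, chromosome 22 from 20080221 to 20111877, plus strand, 14 exons) had 75.8, 75.7 and 75.3 CPM in shCtrl and 77.3, 81.7 and 76.9 CPM in shmiR155HG replicates 1, 2 and 3. The groups did not overlap, yet the gap was small beside the spread the test allows for a gene of this level, and the fitted log2 difference was 0.058 (SE 0.056, adjusted p = 0.564, 95% interval −0.058 to 0.17). It was 0.030 without shmiR155HG replicate 2, the highest library, and 0.031 with a correction for GC content. The ratio of DGCR8 to DROSHA within a library was 0.695, 0.752 and 0.654 in shCtrl and 0.695, 0.744 and 0.717 in shmiR155HG cells, and these ranges overlapped. The exons of TRMT2A overlap those of DGCR8 on the opposite strand. Over the whole gene, its counts came to 84.6% of those of DGCR8, and its log2 fold change was 0.096 (adjusted p = 0.358). Of the 75-base windows of the canonical DGCR8 transcript, 9.18% occur in transcripts of other genes. The genes sharing the most of these windows are ENSG00000243762, MIR3618 and MIR1306, not TRMT2A. Where strand was not used, the count of DGCR8 is uncertain to an extent not known.

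The DGCR8 mRNA is itself a known substrate of the Microprocessor, which cuts hairpins near its start, and these hairpins are annotated as miRNA genes. By RefSeq coordinates (GRCh38.p14), miR-3618 lies in the 5′UTR and the products of MIR1306 in the coding part of exon 2, at chr22:20085797-20085818, chr22:20086072-20086093 and chr22:20086112-20086129. They are shown, seeds in capitals, because they are the place where the level of DROSHA and DGCR8 protein is known to act back on the DGCR8 mRNA. Neither miRNA gene is listed among the counted genes, so cutting at these hairpins was not measured.
miR-3618: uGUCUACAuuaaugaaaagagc
miR-1306-5p: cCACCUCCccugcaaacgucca
miR-1306-3p: aCGUUGGCucugguggug

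XPO5 and DICER1 had the smallest differences of the 10 genes, in opposite directions and within 1% of the shCtrl level. XPO5 (ENSG00000124571, chromosome 6 from 43522334 to 43576038, minus strand, 32 exons), the export receptor of the hairpins, had 240.4, 244.4 and 235.4 CPM in shCtrl and 237.6, 247.1 and 237.0 CPM in shmiR155HG replicates 1, 2 and 3. Its log2 fold change was 0.0032 (SE 0.037, adjusted p = 0.972) and its interval, −0.073 to 0.079, corresponds to a fold between 0.951 and 1.06. DICER1 (ENSG00000100697, chromosome 14 from 95086228 to 95158010, minus strand, 27 exons), the enzyme that cuts the hairpin into a duplex, had 245.6, 254.7 and 249.9 CPM in shCtrl and 252.7, 248.6 and 245.2 CPM in shmiR155HG replicates 1, 2 and 3. The log2 fold change of DICER1 was −0.0071 (SE 0.036, adjusted p = 0.933, fold between 0.945 and 1.05). These were the most deeply counted of the 10 genes, with 7927 to 9740 counts per library, and their intervals were the narrowest. The signs of both values turned under some settings. For POLR1C, which overlaps XPO5 on the opposite strand, the log2 difference was 0.15 (adjusted p = 0.131).

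The double-stranded RNA-binding partners of DICER1 leaned in opposite directions, and neither passed the test. TARBP2 (ENSG00000139546, chromosome 12 from 53500921 to 53506431, plus strand, 9 exons) had 32.4, 29.7 and 27.1 CPM in shCtrl and 35.8, 28.4 and 32.3 CPM in shmiR155HG replicates 1, 2 and 3. Its value on the log2 scale was 0.11 (SE 0.093, adjusted p = 0.480, 95% interval −0.079 to 0.30). The TARBP2 value moved with single libraries, to 0.028 without shmiR155HG replicate 1, 0.051 without shCtrl replicate 3, 0.18 without shCtrl replicate 1 and 0.19 without shmiR155HG replicate 2. PRKRA (ENSG00000180228, chromosome 2 from 178431292 to 178451512, minus strand, 8 exons) had 63.3, 53.9 and 56.5 CPM in shCtrl and 55.3, 52.8 and 55.1 CPM in shmiR155HG replicates 1, 2 and 3. Its log2 fold change was −0.090 (SE 0.068, adjusted p = 0.433, 95% interval −0.23 to 0.050). For both genes the libraries of the groups overlapped. The PRKRA value rested much on shCtrl replicate 1, the highest library, and was −0.020 without it. The ratio of TARBP2 to PRKRA was 0.512, 0.552 and 0.480 in shCtrl and 0.647, 0.538 and 0.586 in shmiR155HG replicates 1, 2 and 3. The lncRNA gene CHROMR lies across PRKRA on the opposite strand, and 45.3% of the 75-base windows of the PRKRA transcript also occur in it. CHROMR had 912 to 1265 counts per library and a log2 difference of −0.23 (adjusted p = 0.0932), so the count of PRKRA is uncertain if strand was not used.

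**Figure D2:**
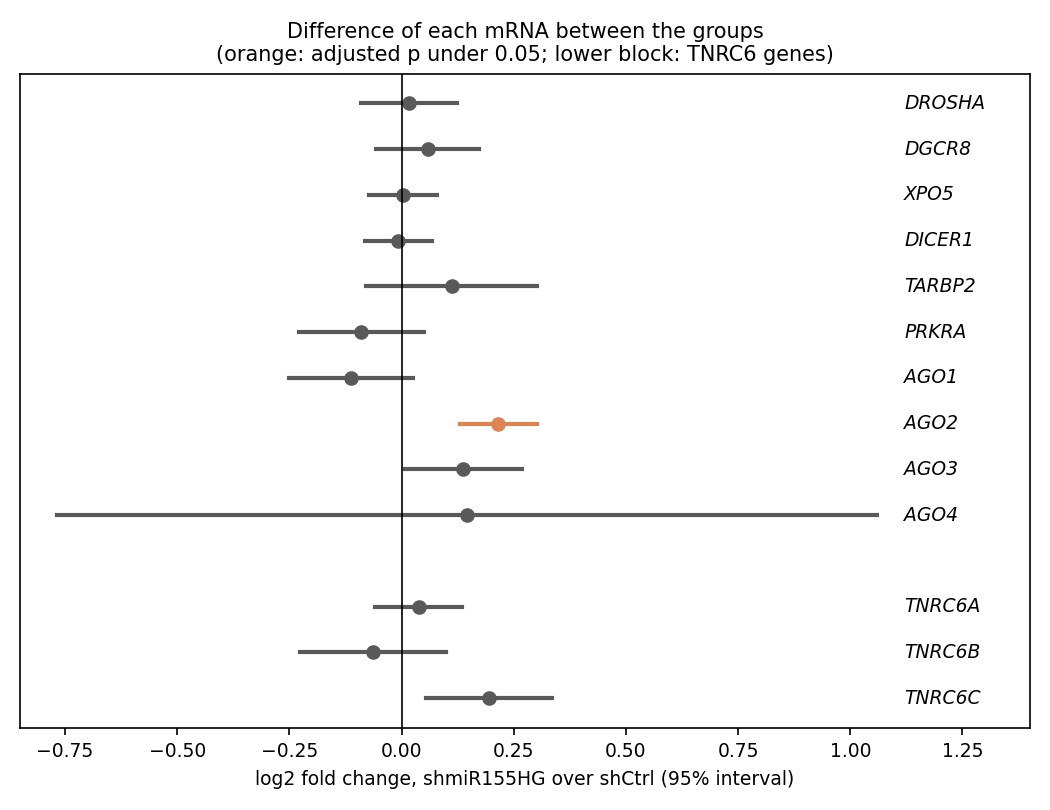
Points are log2 fold changes of shmiR155HG over shCtrl cells (horizontal axis) for the 10 genes and, in the lower block, the TNRC6 genes, and lines are 95% intervals. Only AGO2 (orange) passed an adjusted p under 0.05. The interval of AGO4 spans −0.77 to 1.06.

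Among the Argonautes, AGO2 rose, AGO3 and AGO4 had positive and AGO1 negative values that did not pass the test. AGO2 (ENSG00000123908, chromosome 8 from 140520156 to 140635633, minus strand, 19 exons) had 177.7, 178.6 and 195.7 CPM in shCtrl replicates 1, 2 and 3 and 218.3, 214.5 and 208.4 CPM in shmiR155HG replicates 1, 2 and 3. Each shmiR155HG library lay above each shCtrl library, and the nearest pair, shCtrl replicate 3 and shmiR155HG replicate 3, was 195.7 and 208.4 CPM. The group means were 184.0 ± 10.2 CPM and 213.7 ± 4.97 CPM (SD, n = 3 each). On the log2 scale AGO2 rose by 0.22 (SE 0.042, adjusted p = 0.000577), a rise of 16.1% with a fold between 1.09 and 1.23. Its size was modest beside other called genes, whose median absolute log2 fold change was 0.26, and 35.6% of called genes changed less than AGO2. AGO2 was called higher in 18 of the 19 alternative settings, and its values ran from 0.19 to 0.26 over all 19. The exception was a stricter rule, the exact test of edgeR with an unadjusted p under 0.01 and a fold over 1.2. It called 8.29% of all genes and 0 of the 10, since the fold of AGO2 is under 1.2. No gene of the count table overlaps the exons of AGO2, and none of its 75-base windows occurs in a transcript of another gene.

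AGO1, AGO3 and AGO4 lie next to each other on the plus strand of chromosome 1 in the order AGO4, AGO1, AGO3, with 11917 bases between AGO4 and AGO1 and 185 bases between AGO1 and AGO3. AGO1 (ENSG00000092847, from 35869808 to 35930532, 19 exons) had 55.8, 51.6 and 57.4 CPM in shCtrl and 48.5, 53.0 and 51.0 CPM in shmiR155HG replicates 1, 2 and 3. Its log2 fold change was −0.11 (SE 0.067, adjusted p = 0.294, 95% interval −0.25 to 0.025), and the groups overlapped. AGO3 (ENSG00000126070, from 35930718 to 36072500, 19 exons) had 59.2, 54.3 and 56.7 CPM in shCtrl and 62.3, 64.8 and 60.2 CPM in shmiR155HG replicates 1, 2 and 3. The groups did not overlap for AGO3, but its log2 fold change of 0.14 (SE 0.064) had an adjusted p of 0.160, with an interval from 0.0064 to 0.27. Under a correction for GC content the AGO3 value was 0.19 with an adjusted p of 0.0395. With the replicate block added to that correction the adjusted p was 0.0594, no longer past the threshold, and over all alternatives it ran from 0.0395 to 0.391. AGO4 (ENSG00000134698, from 35808016 to 35857890, 18 exons) was barely present, with 48, 29 and 27 counts in shCtrl and 23, 40 and 46 counts in shmiR155HG replicates 1, 2 and 3. At 0.907 ± 0.287 CPM and 1.01 ± 0.390 CPM (SD, n = 3 each), a fitted log2 difference of 0.15 (SE 0.45, adjusted p = 0.876) left folds from 0.587 to 2.08 inside the interval, so a change of AGO4 within that range could not be told from none at this depth. No 75-base window of the canonical transcript of an Argonaute occurred in a transcript of another Argonaute.

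**Figure D3:**
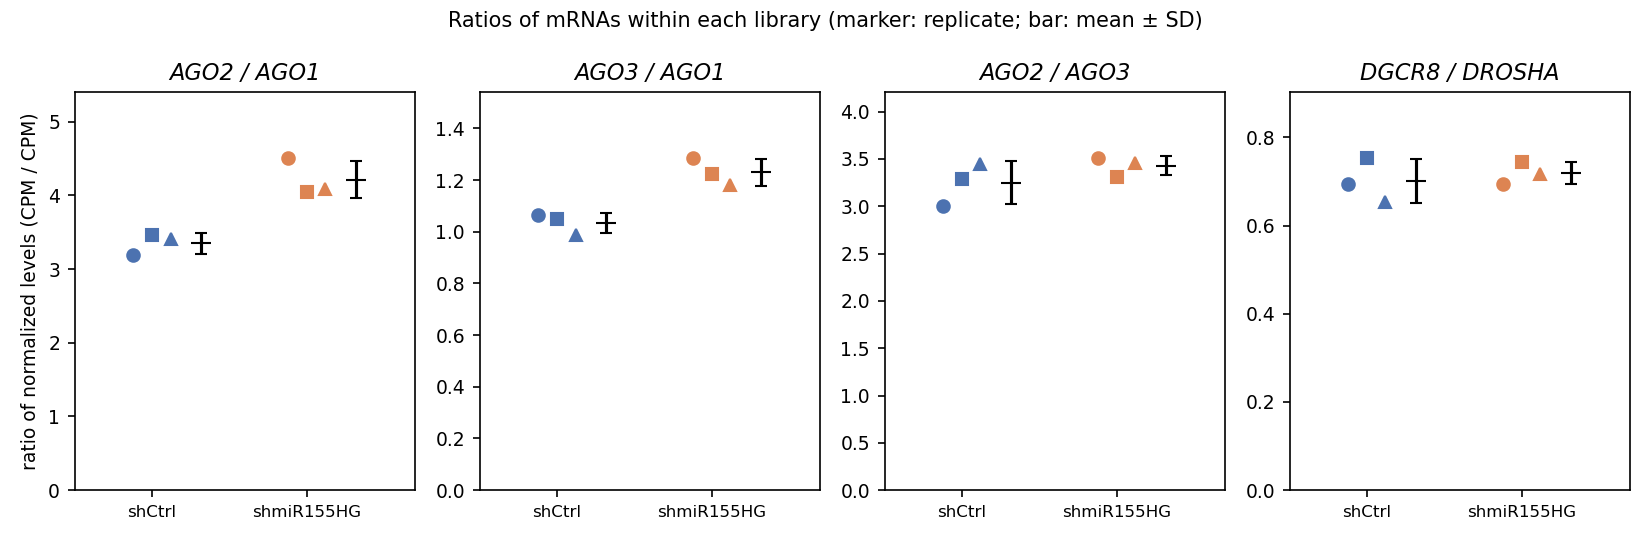
Ratios of normalized levels (CPM over CPM, vertical axes from 0) are plotted for each library, with 1 marker per replicate and the mean ± SD. The ratios of AGO2 to AGO1 and of AGO3 to AGO1 separate the groups, while those of AGO2 to AGO3 and DGCR8 to DROSHA overlap.

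Within a library, AGO2 and AGO3 were both higher relative to AGO1 in shmiR155HG cells. The ratio of AGO2 to AGO1 in CPM was 3.19, 3.46 and 3.41 in shCtrl and 4.50, 4.05 and 4.09 in shmiR155HG replicates 1, 2 and 3. That of AGO3 to AGO1 was 1.06, 1.05 and 0.988 against 1.28, 1.22 and 1.18, without overlap, while that of AGO2 to AGO3 averaged 3.25 ± 0.229 against 3.43 ± 0.102 (SD, n = 3 each), with overlap. The ratio of AGO2 to DICER1 was also higher without overlap, at 0.736 ± 0.0424 in shCtrl and 0.859 ± 0.00771 in shmiR155HG cells (SD, n = 3 each). Neither AGO1 nor AGO3 was called, and the first 2 ratios share AGO1 as denominator. These ratios describe the libraries and were given no test. Of single genes tested, 30.8% did not overlap between the groups. Per kilobase of the canonical transcript, AGO2 made up 64.2 ± 1.35% (SD, n = 3) of the summed Argonaute level in shCtrl and 67.6 ± 1.05% (SD, n = 3) in shmiR155HG cells, and AGO1 made up 20.4 ± 0.492% and 17.1 ± 0.730%. AGO3 accounted for 14.7 ± 0.750% and 14.7 ± 0.292%, and AGO4 for 0.639 ± 0.212% and 0.642 ± 0.256% (SD, n = 3 each). A share falls when another gene of the sum rises, so the lower share of AGO1 is not a separate measurement of its level.

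Levels of different genes were compared as CPM per kilobase of the canonical transcript. In shCtrl cells, XPO5 was highest at 45.1 ± 0.852, followed by PRKRA at 32.7 ± 2.74, DICER1 at 24.1 ± 0.438, DROSHA at 20.0 ± 1.34, TARBP2 at 19.7 ± 1.75, DGCR8 at 16.8 ± 0.0633, AGO2 at 12.6 ± 0.696, AGO1 at 4.01 ± 0.218, AGO3 at 2.89 ± 0.127 and AGO4 at 0.125 ± 0.0395 CPM per kilobase (SD, n = 3 each). Of these neighbours only DROSHA and TARBP2 overlapped in shCtrl, and the same pair was the only one of these neighbours to overlap in shmiR155HG libraries. Beside all genes tested, XPO5 stood at the 84.5th percentile of this scale, AGO2 at the 56.3th and AGO4 at the 0.516th. The place of the Argonautes depends on length, because their canonical transcripts carry annotated 3′UTRs of 10925 nt (AGO1), 11888 nt (AGO2), 16755 nt (AGO3) and 4285 nt (AGO4), which the cells may not use in full. Per kilobase of coding length, AGO2 came first, at 71.4 ± 3.94 CPM, and XPO5 second, at 66.5 ± 1.26 CPM (SD, n = 3 each, shCtrl). Per kilobase of all exons of a gene merged, the order in shCtrl cells was XPO5, DROSHA, AGO2, DICER1, DGCR8, TARBP2, PRKRA, AGO1, AGO3 and AGO4, so the place of PRKRA, 2nd on the first scale and 7th here, depends on length as well. On all 3 scales AGO2 was the highest Argonaute and AGO4 the lowest.

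The 3′UTRs of the 10 genes were searched for AGCATTA, the complement of the seed of miR-155-5p, on the transcript strand. AGO3 and AGO4 each held 1 match, and the other 8 genes held none. Of the 10759 genes tested with an annotated 3′UTR, 11.9% held a match, but the share rises with length. It was 64.6% among 79 genes with a 3′UTR within 1.5 times the length of that of AGO3, 27.0% among 2052 genes near AGO4, and 55.1% among 234 genes near AGO2. A match describes these letters and is no measure of binding. Both matches are shown with their surroundings in the direction of the mRNA (hg38, plus strand), the match in capitals. The stretches shown lie at chr1:36063405-36063433 for AGO3 and chr1:35854112-35854140 for AGO4. Within the sequence searched, the matches are the places where this whole seed could pair. Shorter matches, other parts of the mRNAs and sites for the other mature product of MIR155 were not searched.
AGO3 site: tcacatttttcAGCATTAggattaagata
AGO4 site: tgcctttaatgAGCATTAatttttgaaag

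Log2 fold changes rose with GC content across all genes tested, which bears on single values of the 10 genes. The median log2 fold change was −0.060 in the lowest of 10 equal bins of GC content and 0.089 in the highest. AGO3 (38.9% GC) and DICER1 (40.2%) lie in bin 2, where the median was −0.049, and TARBP2 (60.1%) in bin 9, where it was 0.053. AGO2 and AGO1, with 46.6% and 46.4%, both lie in the middle of the range, where the median was −0.0058. With the trend removed in each library, AGO2 was at 0.23, AGO3 at 0.19, DICER1 at 0.042, TARBP2 at 0.057, DGCR8 at 0.031, PRKRA at −0.050 and AGO1 at −0.099 on the log2 scale.

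**Figure D4:**
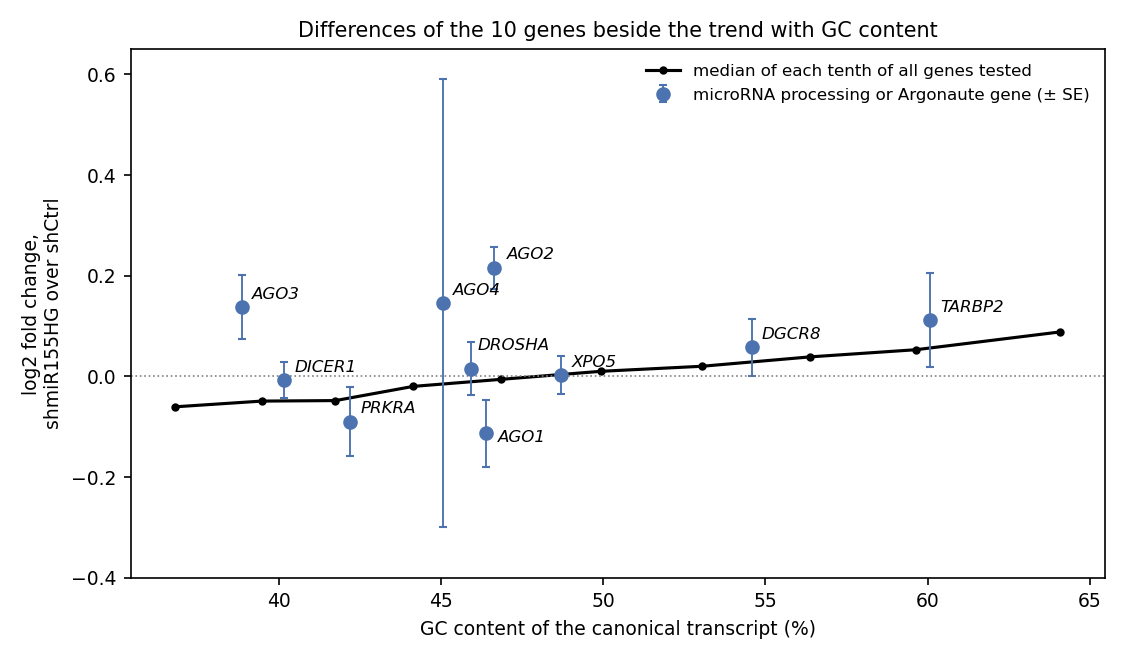
The log2 fold change of each of the 10 genes (points, ± SE) is plotted against the GC content of its canonical transcript, with the median of each of 10 equal bins of all genes tested as a black line. The line rises from −0.060 to 0.089, and AGO2, AGO3 and, narrowly, DICER1 lie more than 1 SE above it.

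Around these 10 genes, 57 of 63 other genes of the pathway were tested, of which 3 were called higher and 7 lower, against 7.26% and 8.02% of all genes. Without shmiR155HG replicate 3, 4 were called lower, and IPO8, TNPO1, DCP2 and HSPA8 were no longer called. With the correction for GC content, 7 were called higher and 7 lower. Among 10 nuclear partners of the Microprocessor, SRRT (ARS2), which links the cap-binding complex to primary miRNAs, rose from 277.6 ± 11.3 to 327.4 ± 6.55 CPM (SD, n = 3 each; log2 fold change 0.24, SE 0.037, adjusted p = 3.61e-05). DDX17, an RNA helicase of the Microprocessor, rose by 0.13 on the log2 scale (SE 0.030, adjusted p = 0.00280). The other 8 were not called, and the median of the list was 0.029.

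Of 4 genes of export and import, IPO8 (importin 8), known to carry Argonautes into the nucleus, fell (log2 fold change −0.22, SE 0.060, adjusted p = 0.0116), as did TNPO1 (transportin 1, −0.10, SE 0.034, adjusted p = 0.0442). Of 6 genes of precursor tailing and decay tested, TENT2, a poly(A) polymerase that adds single A residues to miRNAs, fell (−0.24, SE 0.053, adjusted p = 0.00206). Of 10 genes of Argonaute loading and turnover tested, the HSP90 co-chaperone PTGES3 (p23) fell from 446.7 ± 18.6 to 359.0 ± 4.20 CPM (SD, n = 3 each; −0.32, SE 0.035, adjusted p = 2.01e-07). HSP90AA1, the inducible cytosolic HSP90, also fell (−0.25, SE 0.029, adjusted p = 4.28e-07), and HSPA8, a constitutive HSP70, rose (0.086, SE 0.027, adjusted p = 0.0295). These chaperones have many other clients than Argonautes. The lists of export and import, tailing and decay, and loading had medians of −0.067, −0.082 and −0.021.

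The TNRC6 scaffold proteins, the direct partners of the Argonautes, were not called. TNRC6A differed by 0.038 on the log2 scale (SE 0.047, adjusted p = 0.664) and TNRC6B by −0.064 (SE 0.079, adjusted p = 0.668). TNRC6C had 46.0, 43.4 and 48.0 CPM in shCtrl and 54.8, 50.9 and 51.5 CPM in shmiR155HG replicates 1, 2 and 3, without overlap, and its log2 fold change of 0.19 (SE 0.068) had an adjusted p of 0.0523. Of 24 effectors of silencing, which shorten the poly(A) tail, remove the cap and degrade the mRNA, CNOT9, a subunit of the CCR4–NOT deadenylase that binds TNRC6 proteins, fell from 181.3 ± 1.79 to 143.3 ± 1.79 CPM (SD, n = 3 each; −0.34, SE 0.040, adjusted p = 5.28e-07). The decapping enzyme DCP2 fell by 0.16 on the log2 scale (SE 0.054, adjusted p = 0.0466), and the other 22 were not called, with a median of 0.023 for the list. The PIWI genes, the germline branch of the Argonaute family, were not tested, since PIWIL1, PIWIL3 and PIWIL4 had no count in any library and PIWIL2 had at most 9.

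**Figure D5:**
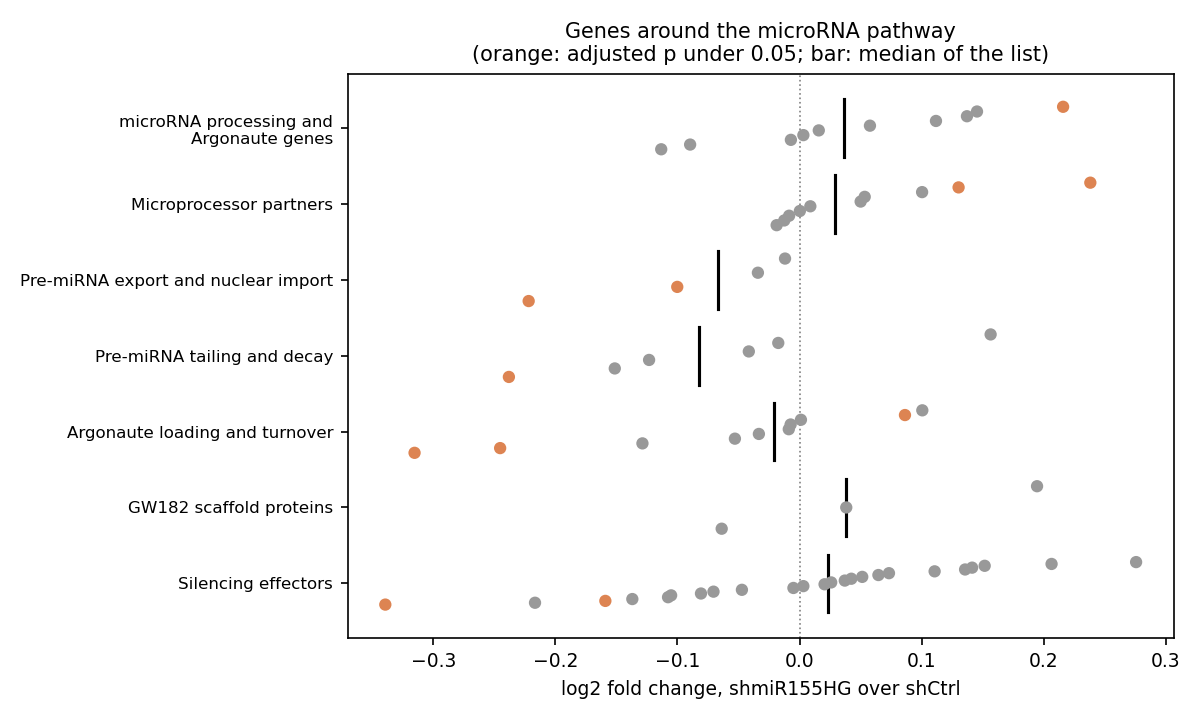
Each point is the log2 fold change of 1 gene (horizontal axis, shmiR155HG over shCtrl), by list, with genes at an adjusted p under 0.05 in orange and the median of each list as a bar. The medians lie between −0.082 and 0.038, and CNOT9, PTGES3 and HSP90AA1 are the lowest points.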

How the data were processed

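Poly(A) RNA of NK92 cells was sequenced in 6 libraries, 3 per group, with total counts of 33454786 to 39157264. With hg38 as reference, the authors ran HISAT2 and then made the deposited gene counts with StringTie (reference transcripts only) and prepDE.py3. The annotation release, the strand setting and the read length given to prepDE.py3, which scales the counts, are not given in the sources used here. Genes over 1 CPM in at least 2 libraries were kept, 12263 of 36601. Groups were compared with the quasi-likelihood test of edgeR 4.0.16 (TMM scaling, two-sided, Benjamini-Hochberg over all genes tested, R 4.3.3), and the code was tested on simulated data. The study used the exact test of edgeR, which was an alternative here. CPM values are scaled by TMM, and log2 fold changes are shmiR155HG over shCtrl.

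Positions, exons, UTRs and lengths come from the canonical transcripts of GENCODE release 44 (hg38), to which 36366 gene IDs matched, and miRNA sequences from RefSeq (GRCh38.p14). The 10 genes and the gene lists were chosen with earlier results of these data known. All 10 were named, as were MIR155HG, the TNRC6 genes and, of each other list, up to 3 called genes with the largest changes. Alternatives were the exact test with an adjusted p, the same test with the cutoffs of the study (unadjusted p under 0.01 and a fold over 1.2), DESeq2 1.42.0, limma-voom (limma 3.58.1), other scalings and filters, counts divided by 2, corrections for GC content or transcript length, a replicate block, other gene lengths, and each library left out. The replicate block together with the GC correction was chosen after seeing the data. All other genes were left out of the text except where a result turned on them. One B cell marker and the summed level of its list are not reported here.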

Additional observations from a re-analysis of the deposited data

How the results depend on the processing

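AGO2 was called higher in 18 of the 19 alternatives (over all 19, log2 fold change 0.19 to 0.26 and adjusted p 2.92e-05 to 0.0107), and none of the 10 genes was called lower in any. The exact test with an unadjusted p under 0.01 and a fold over 1.2 called 0 of the 10 genes, 551 of all genes higher and 466 lower in place of 890 and 984, and 0 other pathway genes higher and 2 lower in place of 3 and 7. The study reported more genes in each direction than these cutoffs called here, and the reason was not tested. The GC correction called 2 of the 10 genes higher (AGO2 and AGO3) and 7 other pathway genes higher. With 1 library left out, 1 of the 10 genes was called higher each time, 580 to 891 of all genes higher (580 without shmiR155HG replicate 2) and 674 to 917 lower, and 2 to 4 other pathway genes higher and 4 to 7 lower.

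The sign turned for 4 genes near 0 or near the filter. XPO5 was at −0.0018 with no filter, and DICER1 at 0.042 with the GC correction and at 0.042 with the replicate block and GC correction. With 1 library left out, DROSHA ranged from −0.033 to 0.064, XPO5 from −0.016 to 0.017, DICER1 from −0.019 to 0.0071 and AGO4 from −0.14 to 0.43. The share of AGO2 in the Argonaute level of shCtrl cells was 62.0% per coding length and 63.3% per merged exons, that of AGO1 18.6% and 21.3%, that of AGO3 19.1% and 14.7%, and that of AGO4 0.306% and 0.670%. These shares differ because the same CPM were divided by other lengths. The cause of the turns in sign was not tested.

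Samples with the same replicate number did not deviate together (correlations −0.013, 0.012 and 0.020), so the counts gave no sign of pairing by number. Whether libraries were prepared in pairs is not given in the sources used here, and these correlations cannot exclude it. The replicate block called 829 genes higher and 909 lower, and 1 of the 10 genes, AGO2, higher. With the replicate block and GC correction, AGO3 lost the call it had with the GC correction alone (adjusted p = 0.0594 by edgeR), which left AGO2 called, and 6 other pathway genes were called higher.

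Counts limit AGO4, whose 23 to 48 counts per library leave a wide interval. These data hold no protein, no mature miRNA and no cells without an shRNA or without cytokines.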

Other observations

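LIN28B, an RNA-binding protein that blocks the processing of let-7 precursors and is usually silent in adult cells, was well expressed in NK92 cells, while its relative LIN28A had 0 to 10 counts per library. LIN28B had 75.8, 86.8 and 76.6 CPM in shCtrl and 82.3, 89.1 and 95.2 CPM in shmiR155HG replicates 1, 2 and 3, with overlap. The difference was 0.16 on the log2 scale (SE 0.063, adjusted p = 0.0975 by edgeR). DICER1-AS1, a lncRNA on the strand opposite DICER1, had 21, 14 and 17 counts in shCtrl and 24, 83 and 16 counts in shmiR155HG replicates 1, 2 and 3, so that shmiR155HG replicate 2 stood apart from the other 5 libraries. Both genes were chosen after their values were seen.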
